A study of Mus musculus with 12 samples.

Results

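Immune cell microRNAs are the mature microRNAs that blood and tissue leukocytes express at high level. In whole liver they may come from cells that lie among the hepatocytes, such as Kupffer cells, lymphocytes and blood that stays in the sinusoids. Which cells made them in these livers was not tested. The 8 described here were chosen by name from the deposited table of 1906 mature microRNA names: mmu-miR-142a-5p, mmu-miR-142a-3p, mmu-miR-150-5p, mmu-miR-155-5p, mmu-miR-146a-5p, mmu-miR-146b-5p, mmu-miR-223-3p and mmu-miR-342-3p, written without the species prefix mmu below. Small RNA had been sequenced from flash-frozen livers of 8-week-old Crl:CD1(ICR) mice, an outbred stock, with 6 male and 6 female livers and 1 library from each. The labels give no treatment and no genetic change for either sex, and they do not say whether the mice shared litters, cages or days. The question of the design was which microRNAs differ in abundance between the sexes.

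A mature microRNA guides an Argonaute protein to messenger RNAs mainly through its seed, the bases 2 to 8 from the 5′ end, and lowers the output of those messages. Each hairpin precursor can yield a 5p and a 3p arm, and usually one arm accumulates. miR-142 is made throughout the blood lineages. miR-150 is abundant in mature lymphocytes, where it represses Myb, and miR-342 is expressed in lymphocytes as well as in other tissues. miR-223 is made chiefly in granulocytes and other myeloid cells. miR-155 is induced when lymphocytes and macrophages are activated, and miR-146a is induced by NF-kB and represses Irak1 and Traf6 in the same pathway. miR-146b is its paralog on another chromosome.

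Mature sequences from RefSeq (GRCm38.p6) matched 7 of the 8 members, and all 7 had the length given in the deposited table. They are shown because they separate the members into 6 seeds (capitals), with 1 seed shared by miR-146a-5p and miR-146b-5p.
miR-142a-5p: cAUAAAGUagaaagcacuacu
miR-142a-3p: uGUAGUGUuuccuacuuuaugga
miR-155-5p: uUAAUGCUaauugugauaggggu
miR-146a-5p: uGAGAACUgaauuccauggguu
miR-146b-5p: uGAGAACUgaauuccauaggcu
miR-223-3p: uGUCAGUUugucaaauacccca
miR-342-3p: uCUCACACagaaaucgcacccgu
No sequence is shown for miR-150-5p.

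The 22 bases of miR-146a-5p and miR-146b-5p differed at 2 positions, G18A and U21C (miR-146a-5p base first, counted from the 5′ end). The differing bases are in capitals here, because they are all that separates the reads of the paralogs.
miR-146a-5p: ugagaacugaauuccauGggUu
miR-146b-5p: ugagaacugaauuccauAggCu
Reads that end before position 18 could have come from either paralog, and the sources used here do not say how such reads were assigned.

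The hairpin of miR-142a carries both of its arms, in capitals, because the data below turn on their ratio.
miR-142a hairpin: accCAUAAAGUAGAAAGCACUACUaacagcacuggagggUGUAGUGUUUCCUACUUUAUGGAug
The opposite strand at the same place is annotated as miR-142b. All 20 bases of miR-142b are the reverse complement of miR-142a-3p from position 4 to its end.
miR-142a-3p: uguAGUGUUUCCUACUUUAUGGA
miR-142b: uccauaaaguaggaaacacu
The deposited counts of miR-142a-3p and miR-142b were equal in 11 of 12 livers and differed by 1 read in female 1 (1084 and 1083), so these names cannot be told apart, and values of miR-142a-3p below are those of the locus.

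The members lie at 7 hairpins. On mm9, the build of the deposited table, miR-142a-5p is at chr11:87570369-87570389 and miR-142a-3p at chr11:87570405-87570427, in an intron of the noncoding gene Mir142hg by GENCODE names. miR-155-5p (chr16:84714388-84714410) lies in an exon of the noncoding gene Mir155hg, and miR-223-3p (chrX:93438223-93438244) in an exon of the noncoding gene F630028O10Rik. miR-342-3p (chr12:109896890-109896912) lies in an intron of Evl and miR-146b-5p (chr19:46417280-46417301) in an intron of Mfsd13a. miR-146a-5p (chr11:43187937-43187958) lies in no other annotated gene of that release, and miR-150-5p is at chr7:52377132-52377153.

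Total microRNA counts per liver were 2953955 to 5516430, so that a floor of 3 counts corresponded to 0.544 to 1.02 CPM (reads of a microRNA relative to the library total) before scaling, a limit from counting error only. All other CPM values are relative to totals scaled by TMM, which corrects for a shift common to most names. Male 1 and male 6 stood farthest from the other livers of their sex, with a median absolute log2 deviation of 0.345 and 0.309 over the 419 tested names, against 0.150 to 0.232 in the other 10 livers. Results that changed most without them are given both ways.

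All 8 members were read in every liver, and all 8 passed the filter on low counts. Their lowest count in any liver was 16, for miR-155-5p, and their highest was 4550, for miR-146a-5p. Together they held 0.120 to 0.193% of all counts in males, with a median of 0.153%, and 0.150 to 0.215% in females, with a median of 0.180%. The ranges of the sexes overlapped. The hepatocyte microRNA miR-122-5p had 302954 to 376318 CPM in the same livers, so the members are a small share beside it. In such bulk samples, fewer cells of a type and less of the microRNA per cell cannot be told apart.

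The members spanned a wide range of levels, and mature microRNAs of 21 to 23 bases can be compared as counts without a correction for length, though ligation can favour some ends. Over the 12 livers, miR-146a-5p was the highest at 684 ± 147 CPM (SD, n = 12), and ranked 67 among all names by total count. It was followed by miR-142a-5p (435 ± 99.4 CPM), miR-142a-3p (214 ± 64.7 CPM), miR-150-5p (107.8 ± 27.9 CPM) and miR-223-3p (96.5 ± 17.8 CPM). miR-146b-5p (60.3 ± 13.0 CPM) and miR-342-3p (43.7 ± 9.89 CPM) were lower. miR-155-5p was the lowest at 9.03 ± 2.27 CPM and rank 307. This order held between neighbours in all 12 livers except for 3 pairs. miR-150-5p was above miR-223-3p in 8 of 12 livers, miR-146b-5p above miR-342-3p in 10, and miR-142a-3p above miR-150-5p in 11. The lymphoid miR-150-5p and the myeloid miR-223-3p thus did not differ in level beyond their spread.

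**Figure D1:**
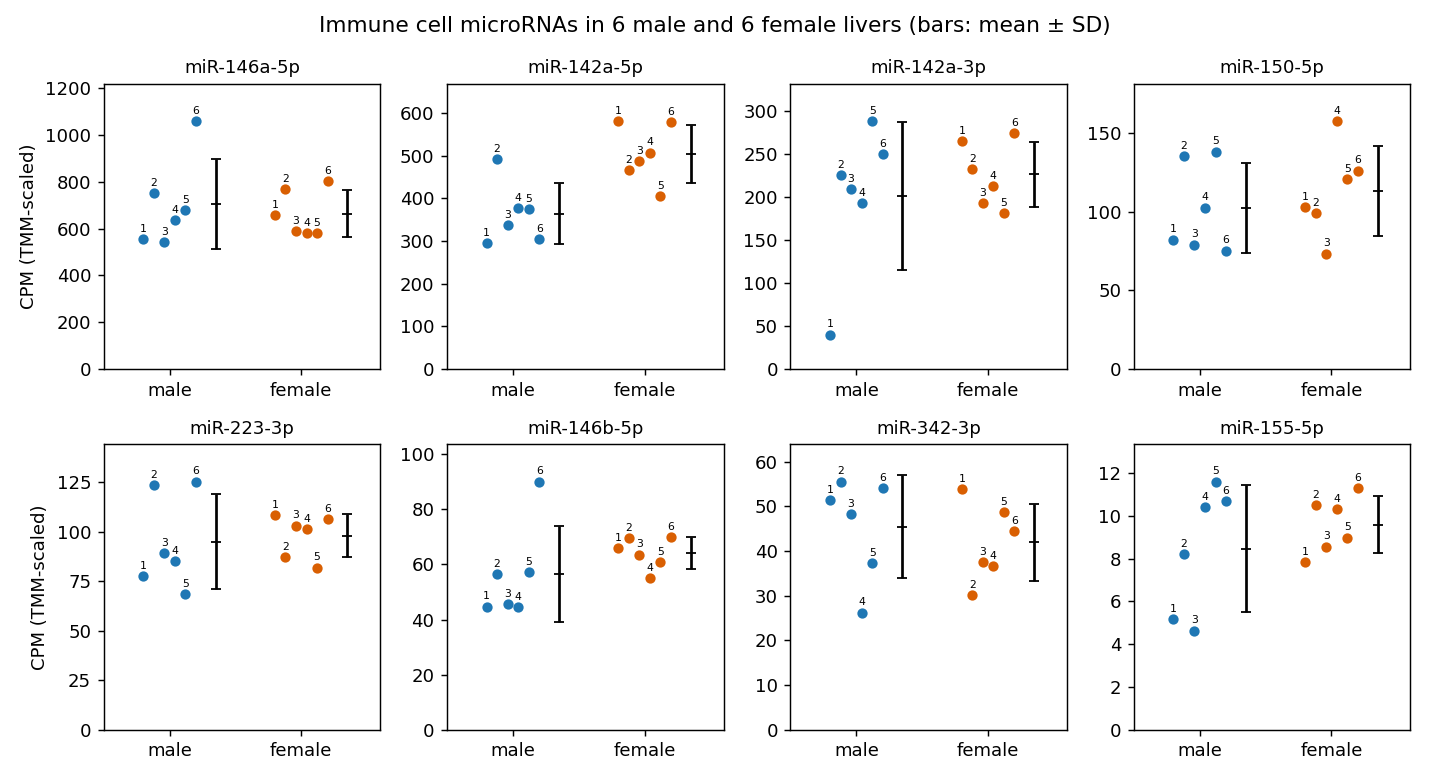
Level of each immune cell microRNA in CPM (linear axis from 0) in 6 male and 6 female livers; each numbered point is 1 liver and black bars are mean ± SD. miR-142a-5p is lower in 5 males than in every female, male 1 is far below all others for miR-142a-3p, and male 6 is the highest liver for miR-146a-5p and miR-146b-5p.

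Of the 8 members, 1 differed between the sexes, namely miR-142a-5p, with the higher level in females. This call came from edgeR (quasi-likelihood, Benjamini-Hochberg adjustment over all 419 tested names), which called 16.9% of these names in either direction and 8.59% higher in females. At an unadjusted p under 0.05 it was again 1 of 8 members, beside 29.4% of all tested names. The median log2 fold change (male over female) of the 8 members was -0.16, beside -0.02 for all tested names, and 6 of the 8 had negative values, beside 53% of all tested names. No member had sexes that did not overlap, beside 8.11% of all tested names.

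miR-142a-5p, the blood lineage microRNA, had 295 CPM in the lowest male, a median of 356 CPM and 493 CPM in the highest male, and 406, 498 and 582 CPM in the same order in females. All males but male 2 lay below every female, and 3 females lay above every male. Males averaged 364 ± 72.0 CPM (SD, n = 6) and females 505 ± 67.9 CPM (SD, n = 6). On the log2 scale the fold change was -0.47 (standard error 0.13, 95% interval -0.75 to -0.19), or 1.39-fold higher in females (edgeR adjusted p = 0.0256). The call was lost without male 3 (adjusted p = 0.0600), male 6 (0.0544), female 1 (0.0632) or female 6 (0.0596), and without males 1 and 6 together, where the log2 fold change was -0.37 (adjusted p = 0.0788). It was also lost with no filter on low counts (edgeR adjusted p = 0.0749) and with the replicate number as a block (0.0825). It was kept in the other 8 fits that left out 1 liver. With DESeq2 (Wald test, adjusted p = 0.00685) and under total counts alone (edgeR adjusted p = 0.00457) it was kept as well. In the authors' deposited table the same microRNA has a log2 fold change of -0.43 with a false discovery rate of 0.276.

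miR-142a-3p, from the other arm of the hairpin, had 39.8 CPM in male 1 and 193 to 289 CPM in the other 5 males, while the females had 181 to 274 CPM. Only male 1 lay outside the female range on the low side, and only male 5 on the high side. Its log2 fold change was -0.17 (standard error 0.33, 95% interval -0.87 to 0.53, edgeR adjusted p = 0.762). Without male 1 it was 0.03 (adjusted p = 0.902), so its sign rested on that liver. Its spread was the widest among the members, with a gene-wise biological coefficient of variation of 0.396, beside a median of 0.196 for all tested names and 0.175 for miR-142a-5p.

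**Figure D2:**
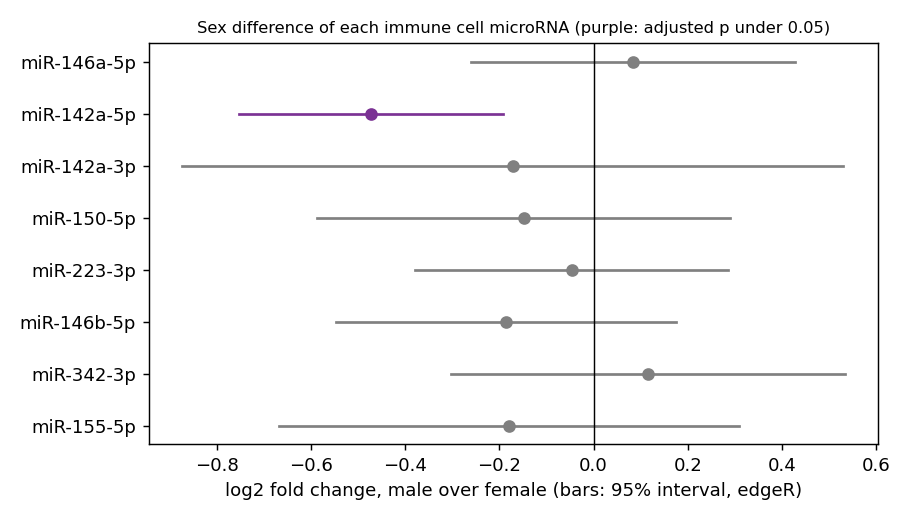
Log2 fold change of male over female for each immune cell microRNA (points) with its 95% interval (bars), from edgeR over 6 male and 6 female livers. Only the interval of miR-142a-5p, -0.75 to -0.19, leaves out 0; the widest belongs to miR-142a-3p.

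The ratio of the arms within a liver does not depend on how libraries are scaled. Reads of miR-142a-5p outnumbered those of miR-142a-3p 7.38 times in male 1, and 2.19, 1.61, 1.95, 1.30 and 1.22 times in males 2 to 6. In females the ratio was narrow, from 2.01 to 2.53 with a median of 2.22. Over all 12 livers the log2 ratio differed by -0.11 between the sexes (male minus female, exact two-sided permutation test, p = 0.877, adjusted over 4 ratios p = 0.946). Without male 1 the 5 remaining males were lower by 0.47 on the log2 scale (value -0.47, exact permutation p = 0.0173, adjusted p = 0.0346), and their ranges still overlapped through male 2. Without males 1 and 6 the difference was -0.37 (exact permutation p = 0.0381, adjusted p = 0.0762).

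Male 1 was thus set apart in 1 arm and not in the other. On the log2 scale it lay 2.52 below the mean of the other males for miR-142a-3p, the rank 5 lowest of 419 names, and 0.34 below it for miR-142a-5p, at rank 120. Among 41 hairpins with a mean of at least 100 counts on each arm, miR-142a had the largest shift of the arm ratio in male 1, 1.94 on the log2 scale against the other 11 livers. The next was miR-144 (1.46), whose 3p arm was low in male 1 at 93.6 CPM while its 5p arm was at 177 CPM. The third was miR-362 (1.31), and the median absolute shift in male 1 was 0.330, above the 0.0761 to 0.228 of the other livers. miR-142a also had the largest shift of the 41 in males 3, 5 and 6, at -0.46, -0.80 and -0.90, in a comparison whose reference includes male 1. The part of RNA quality or library preparation in male 1 was not tested.

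**Figure D3:**
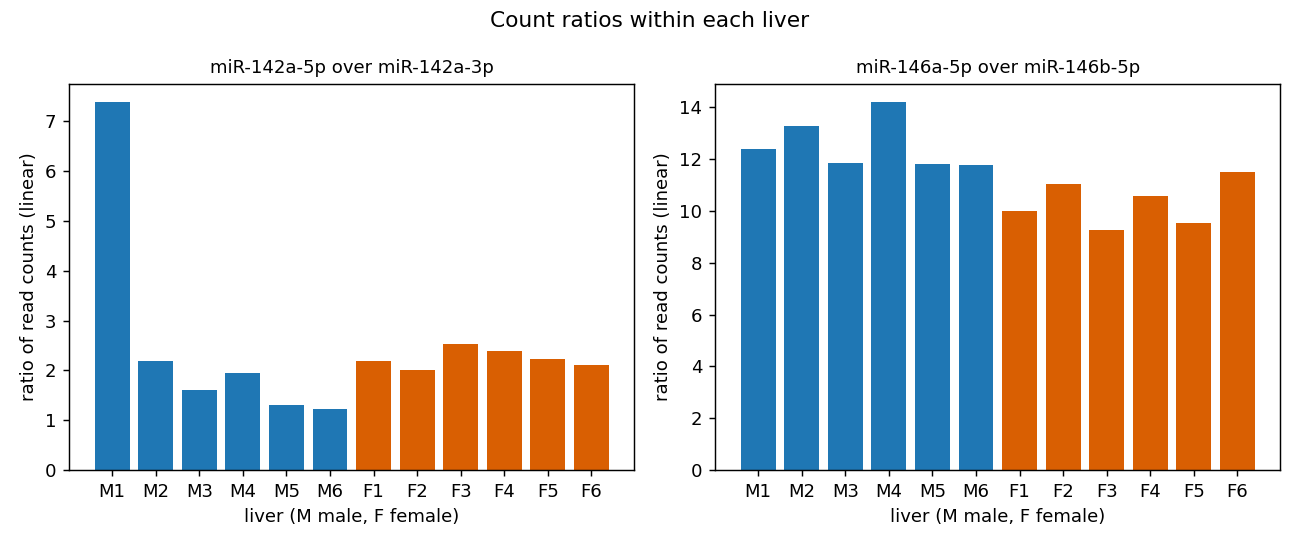
Ratio of read counts within each liver (linear axes from 0; M male, F female; a pseudocount of 0.5 was added to each count), for the arms of miR-142a at left and for miR-146a-5p over miR-146b-5p at right. Male 1 stands at 7.38 at left, and all 6 males, from 11.8, lie above every female, at most 11.5, at right.

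The NF-kB-linked paralogs miR-146a-5p and miR-146b-5p were not called between the sexes by themselves. miR-146a-5p had 541 CPM in the lowest male, a median of 657 and 1061 CPM in male 6, against 581, 624 and 804 CPM in females. Male 6 lay above every female and males 1 and 3 below every female, while the other 3 males were within the female range. Its log2 fold change was 0.08 (standard error 0.16, 95% interval -0.26 to 0.43, edgeR adjusted p = 0.762), and it turned to -0.06 without male 6 (adjusted p = 0.766) and to -0.03 under scaling by total counts. miR-146b-5p had 44.6 CPM in the lowest male, a median of 51.1 and 90.1 CPM in male 6, against 55.0, 64.7 and 70.0 CPM in females. Male 6 was the only male above every female, and 3 males lay below every female. Its log2 fold change was -0.19 (standard error 0.17, 95% interval -0.55 to 0.17, edgeR adjusted p = 0.499), and without male 6 it was -0.36 and just passed the threshold (adjusted p = 0.0495).

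The balance between the paralogs differed between the sexes. The ratio of miR-146a-5p to miR-146b-5p was 12.4, 13.3, 11.8, 14.2, 11.8 and 11.8 in males 1 to 6 and 9.99, 11.02, 9.26, 10.6, 9.53 and 11.5 in females 1 to 6. Every male lay above every female, with the closest livers being male 6 and female 6. Among single tested names 8.11% had sexes that did not overlap, and no such share was computed for ratios of other names. On the log2 scale males averaged 3.64 ± 0.11 (SD, n = 6) and females 3.36 ± 0.12 (SD, n = 6), and the ratio was higher in males by 0.28. The exact two-sided permutation test gave p = 0.00216, the smallest that 924 arrangements allow, and p = 0.00866 adjusted over the 4 ratios. The difference was 0.25 to 0.32 with each liver left out in turn (adjusted exact permutation p = 0.0173 in all 12 cases). It was 0.31 without males 1 and 6 (adjusted exact permutation p = 0.0381). Because every male already lay above every female, these fits had to pass, so their p-values do not test the result further. With livers paired by replicate number, the exact sign-flip permutation test gave p = 0.0312, the smallest that 6 pairs allow, and 0.125 adjusted over the ratios. Since the paralogs differ by 2 bases near the 3′ end, as printed above, the part of read assignment in this ratio was not tested.

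The rare arms of the same hairpins were near the floor. miR-146b-3p had 1, 0, 1, 0, 1 and 1 reads in males 1 to 6 and 6, 3, 2, 2, 2 and 5 reads in females 1 to 6. Every female lay above every male in CPM, at 0.476 to 1.47 against 0 to 0.345, on counts of at most 6. It did not pass the filter on low counts, and the authors' deposited table gives it a log2 fold change of -1.96 with a p-value of 0.0121 and a false discovery rate of 0.276. The sexes did not overlap for 8.11% of tested names, and no such share was computed for names below the filter. miR-146a-3p had 1 to 11 reads per liver, and miR-155-3p had none in any male and at most 2 in a female. miR-150-3p had 1 to 20 reads and miR-342-5p 1 to 11 reads. None of these 5 arms passed the filter on low counts, and miR-142b is the shared locus described above. miR-223-5p passed, with 4.85 to 11.4 CPM in males and 5.71 to 8.57 CPM in females, and a log2 fold change of -0.05 (edgeR adjusted p = 0.900).

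The lymphocyte members were not called. miR-150-5p had 75.3 CPM in the lowest male, a median of 92.4 and 138 CPM in the highest, against 73.3, 112 and 158 CPM in females. The sexes overlapped, with 1 female above every male. Its log2 fold change was -0.15 (standard error 0.20, 95% interval -0.59 to 0.29, edgeR adjusted p = 0.681), and it was -0.011 without males 1 and 6. miR-342-3p had 26.2 CPM in the lowest male, a median of 49.8 and 55.6 CPM in the highest, against 30.2, 41.1 and 53.9 CPM in females. It was the only member besides miR-146a-5p with a positive log2 fold change, 0.12 (standard error 0.19, 95% interval -0.30 to 0.53, edgeR adjusted p = 0.732). Without males 1 and 6 it was -0.02.

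miR-155-5p, induced on activation, was near 10 CPM in most livers. It had 4.64 CPM in the lowest male, a median of 9.33 and 11.6 CPM in the highest, against 7.83, 9.66 and 11.3 CPM in females. Males 1 and 3 lay below every female, and the other 4 males were within or above the female range. The log2 fold change was -0.18 (standard error 0.23, 95% interval -0.67 to 0.31, edgeR adjusted p = 0.649), and it was -0.089 without male 1 and -0.061 without male 3. With 16 to 64 reads per liver, counting error alone is large for this member.

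miR-223-3p, the granulocyte microRNA, had 68.4 CPM in the lowest male, a median of 87.2 and 125 CPM in the highest, against 81.8, 102 and 108.5 CPM in females. Males 2 and 6 were above every female and males 1 and 5 below every female, so that the male range enclosed the female one. Its log2 fold change was -0.05 (standard error 0.15, 95% interval -0.38 to 0.29, edgeR adjusted p = 0.858). It lies on the X chromosome. The ratio of miR-223-3p to miR-150-5p counts, which is not a count of myeloid and lymphoid cells, was 0.495 to 1.66 in males and 0.641 to 1.41 in females. Its log2 value differed by 0.08 (exact two-sided permutation p = 0.784, adjusted p = 0.946). The ratio of miR-223-3p to its own 5p arm was 10.9 to 17.1 in males and 10.9 to 18.0 in females (log2 difference 0.01, exact permutation p = 0.946).

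For the 7 members not called, a miss does not show equal levels. Their 95% intervals reached from -0.87 to 0.53 at the widest and from -0.38 to 0.29 at the narrowest, on the log2 scale.

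Of 28 pairs of members, 21 had a positive Pearson r of log2 CPM over the 12 livers, with a median of 0.37. A single pair passed, the paralogs miR-146a-5p and miR-146b-5p (Pearson r = 0.80, permutation p adjusted over 28 pairs = 0.0476, Spearman rho = 0.75, adjusted permutation p = 0.134). Within males r was 0.96 and within females 0.85. After leaving out the 2 livers farthest from the median of miR-146a-5p, r was 0.55, and without male 6 alone it was 0.64 (adjusted permutation p = 0.157). The pair still passed without male 2, male 4, female 3 or female 5, and did not pass without any one of the other livers. The adjusted p over all 12 livers thus lay close to the threshold, while r was 0.64 to 0.85 with each liver left out. Between the arms of miR-142a, r was 0.51 (permutation p = 0.0527, adjusted p = 0.267, rho = 0.36 with permutation p = 0.255) and fell to 0.18 without male 1, or to 0.37 without the 2 livers farthest from the median of miR-142a-5p, males 1 and 6. It was 0.48 within males and 0.87 within females. All these values share the libraries' scaling.

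**Figure D4:**
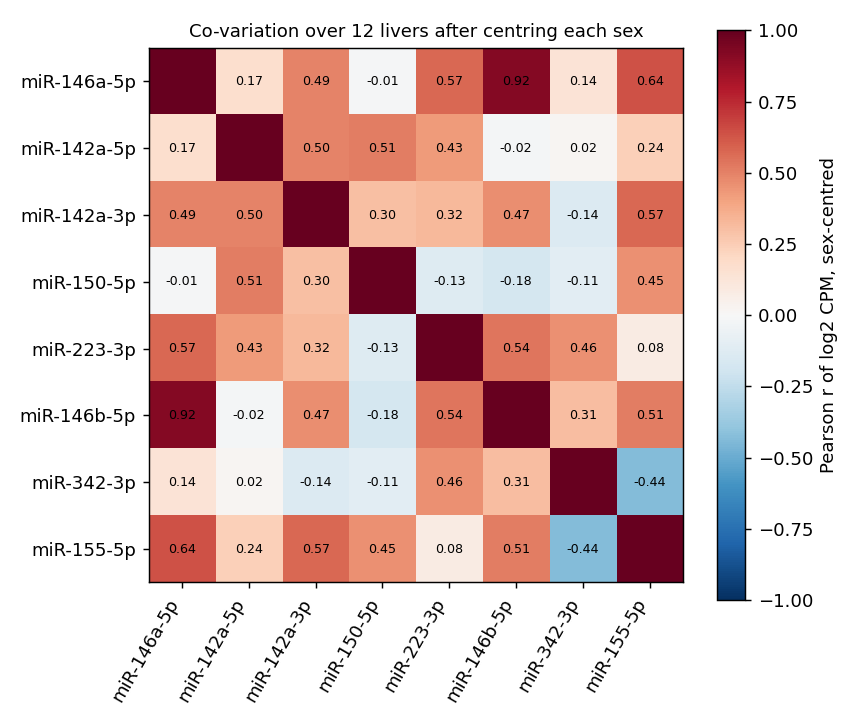
Pearson r of log2 CPM between each pair of immune cell microRNAs over 12 livers, after each sex was centred on its own mean (colour scale -1 to 1). The paralogs miR-146a-5p and miR-146b-5p have the highest value, 0.92, and miR-155-5p with miR-342-3p the lowest, -0.44.

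The 3 names whose levels followed each member most closely over the 12 livers were found by Pearson r after centring each sex, among 300 or 301 names with a mean of at least 10 CPM, as a description. For miR-142a-5p they were miR-148a-3p (0.87), an abundant hepatocyte microRNA, miR-450a-5p (0.86) and miR-335-5p (0.84). For miR-142a-3p they were the shared locus miR-142b, then miR-362-3p (0.96) and miR-32-5p (0.94), which fell to 0.78 and 0.67 without male 1. For miR-155-5p they were miR-15a-5p (0.89), miR-107-3p (0.76) and miR-26b-5p (0.75). miR-146a-5p and miR-146b-5p were each other's closest at 0.92, or 0.84 without male 6. Next to miR-146a-5p came miR-350-3p (0.78) and miR-19b-3p (0.75), which fell to 0.52 and 0.53 without male 6. Next to miR-146b-5p came miR-19b-3p (0.80, or 0.61 without male 6) and miR-3068-5p (0.79). For miR-342-3p they were miR-7219-3p (0.80), miR-222-3p (0.64) and miR-1948-5p (0.62). Those of miR-150-5p were miR-26a-2-3p (0.64), miR-30b-5p (0.56) and miR-27a-5p (0.55). Those of miR-223-3p were miR-21a-5p (0.67), miR-450b-3p (0.64) and miR-503-3p (0.63).

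A further list held 15 microRNAs linked to leukocytes or to NF-kB, and 13 of them were tested. By edgeR, 3 were higher in males and 3 higher in females, beside 8.35% and 8.59% of all tested names, and the list's median log2 fold change was 0.28 beside -0.02. That median is the value of miR-9-5p, which was poorly determined (standard error 0.83, 95% interval -1.52 to 2.07). Those higher in females were miR-181a-5p, miR-181b-5p and miR-652-3p. miR-181a-5p, which tunes T cell receptor signalling and is made in many tissues, had 429 to 608 CPM in males and 593 to 721 CPM in females (log2 fold change -0.40, edgeR adjusted p = 0.0192), with 5 of 6 females above every male. miR-181b-5p from the same family changed by -0.42 (adjusted p = 0.0218) and miR-652-3p by -0.31 (adjusted p = 0.0449, kept only without male 1, male 2 or female 5 among the 12 fits that left out a liver). All 3 calls were lost with no filter on low counts and with the replicate number as a block, where miR-181a-5p had an edgeR adjusted p of 0.0916 and 0.0510, and that of miR-181b-5p also without male 3 or female 6. Those higher in males were miR-221-3p (0.60, adjusted p = 0.00722), miR-222-3p (0.77, adjusted p = 0.00343) and miR-21a-5p (1.06), which many cell types express. miR-511-3p, encoded in the macrophage gene Mrc1, had 40.0 to 48.2 CPM in males and 39.9 to 50.5 CPM in females, with a log2 fold change of 0.03 (95% interval -0.17 to 0.23, edgeR adjusted p = 0.858). The remaining tested names of this list, miR-9-5p, miR-132-3p, miR-132-5p, miR-181d-5p, miR-212-5p and miR-511-5p, were not called, and miR-147-3p and miR-212-3p had at most 3 and 13 reads in a liver.

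Markers of other cells are given beside the difference in miR-142a-5p, since blood and nonparenchymal cells share the tissue. The 5 erythroid names (miR-451a, both arms of miR-144, miR-486a-5p and miR-486b-5p) were all present, with a sum of 1044 to 4099 CPM in males, the highest in male 1, and 2005 to 3033 CPM in females, and 0 of 5 were called. Among them miR-144-3p had 93.6 CPM in the lowest male, a median of 160 and 259 CPM in the highest, against 173, 285 and 358 CPM in females, with 5 females above every male. Its log2 fold change was -0.72 (standard error 0.24, unadjusted p = 0.00963, edgeR adjusted p = 0.0531), in the same direction as miR-142a-5p. Of the 12 fits that left out a liver, it passed only without male 4 (edgeR adjusted p = 0.0214) or female 5 (0.0340). The other 10 did not pass, with an edgeR adjusted p of up to 0.116. It passed under total counts alone (edgeR adjusted p = 0.0243) and with no filter on low counts (0.0416). It also passed with DESeq2 (adjusted p = 0.0214), with a mean of at least 10 CPM required (0.0469) and with overlapping names left out (0.0490). Without males 1 and 6 it was -0.51 (adjusted p = 0.126). The log2 fold change of its 5p arm was -0.13 (adjusted p = 0.700) and that of miR-451a -0.010 (adjusted p = 0.990). Those of miR-486a-5p and miR-486b-5p were -0.23 and -0.24 (edgeR adjusted p = 0.579 each). Their loci overlap those of miR-486b-3p and miR-486a-3p, with equal counts in all 12 livers, so these overlapping names cannot be told apart. The endothelial arms of miR-126a summed to 21232 to 28894 CPM in males and 24161 to 27335 CPM in females, with 0 of 2 called. The 5 names of stellate cells, fibroblasts and smooth muscle summed to 10001 to 15645 CPM in males and 14470 to 17325 CPM in females, and 1 of 5, miR-143-3p, was higher in females (log2 fold change -0.34, edgeR adjusted p = 0.0263), a call lost without males 2, 3 or 5 or females 1 or 2, and with no filter on low counts (0.0916). The 5 biliary names summed to 803 to 7106 CPM in males, the lowest in male 1, and 2316 to 7910 CPM in females, with 0 of 5 called. No name of these lists was at 0. The part of these cells in the result for miR-142a-5p was not tested.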

How the data were processed

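Small RNA libraries from 6 male and 6 female livers were made by the authors with a kit that the labels call strand-specific. Per the submitters' processing notes the tools were Trim Galore, Bowtie2, bedtools and edgeR, with the genome mm9; their settings, and whether strand was used, were not given in the sources used here. For each of 2044 mature loci the authors deposited a count of reads per liver, not normalized, and their own comparison with a log2 fold change, an average log2 CPM, p-values and a false discovery rate, per the file headers. Of 26 pairs of overlapping loci with different names and at least 100 counts each, 24 had totals that differed by under 1%.

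Counts were summed over loci of the same name (1906 names). Libraries were scaled by TMM, names filtered with filterByExpr by sex (419 left) and the sexes compared with edgeR 4.0.16 in R 4.3.3 (glmQLFit, glmQLFTest, no covariate), with Benjamini-Hochberg adjustment and a threshold of 0.05. Log2 CPM used a prior count of 2. Ratios of counts, with 0.5 added, were tested by exact two-sided permutation where the rarer arm had a mean of at least 10 counts. Correlations used 100000 permutations. Of these functions, only the edgeR fit and the exact permutation test between the sexes were tested on simulated data. Named are all members, their opposite arms, the fixed lists and the 3 closest names of each member. Members and lists were chosen with earlier results of these data known. The labels number 6 livers per sex without naming the animals, so p-values cover only the spread among these 12 livers, which may be partly technical. Alternatives were DESeq2 1.42.0, other scalings and filters, unsummed loci, overlapping names left out, a replicate block and each liver left out. Leaving out males 1 and 6 together was chosen after the data were seen.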

Additional observations from a re-analysis of the deposited data

Results flagged for a closer look

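Among 26 groups of 6 livers examined (8 members, 4 ratios and the members' share of counts, in each sex), 2 held a liver far from the other 5, and chance flags about 1 in 20 groups. Male 6 had 90.1 CPM of miR-146b-5p, while the next male had 57.3 CPM. Male 1 had a log2 ratio of miR-142a-5p to miR-142a-3p of 2.88, while the next male had 1.13.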

How the results depend on the processing

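The number of members called, 1 in all 12 livers, was 0 with no filter on low counts, with the replicate block and without males 1 and 6 together, and 0 to 1 with each liver left out, where the 1 called without male 6 was miR-146b-5p. Over all tested names the count of 71 was 47 to 82 with each liver left out, the lowest without male 3, and 48 with the replicate block. Scaling by total counts alone called 31.0% of 84 names higher in males, against 49.3% here, and moved the median of all tested names to -0.12. With no filter on low counts this share was 64.8% of 54. For miR-142a-5p the log2 fold change was -0.43 with no filter, -0.48 with the replicate block, -0.37 without males 1 and 6, and -0.59 to -0.42 with each liver left out. The other members' ranges with each liver left out were -0.31 to 0.028 for miR-142a-3p, -0.064 to 0.14 for miR-146a-5p, -0.36 to -0.13 for miR-146b-5p, -0.15 to 0.026 for miR-223-3p, -0.26 to -0.027 for miR-150-5p (nearest 0 without female 4), -0.30 to -0.061 for miR-155-5p (without male 3) and 0.037 to 0.23 for miR-342-3p (without female 2). miR-146a-5p was -0.028 under total counts alone and -0.044 without males 1 and 6, where miR-342-3p was -0.020. Ranges of the log2 ratios (male minus female) with each liver left out were -0.47 to 0.047 for the arms of miR-142a, 0.25 to 0.32 for miR-146a-5p over miR-146b-5p, -0.085 to 0.26 for miR-223-3p over miR-150-5p and -0.064 to 0.087 for miR-223-3p over miR-223-5p. The last was -0.0024 with a pseudocount of 2, and miR-223-3p over miR-150-5p was -0.13 without males 1 and 6. With the replicate block, the difference of 0.28 for the miR-146 paralogs had an adjusted exact permutation p of 0.125. Its unadjusted p was already the smallest that 6 pairs allow, so this ratio could not pass there by itself. The number of correlated pairs was 0 to 1 with each liver left out and 0 without males 1 and 6, where r of the miR-146 paralogs was 0.57; with each liver left out that r was 0.64 to 0.85 and passed in 4 of 12 cases. Causes of these changes were not tested. Replicate numbers are shared between the sexes, but deviations of same-numbered livers correlated from -0.13 to 0.30 and no number matched best both ways, so the block is no evidence of pairing. A member with few reads, such as miR-155-5p, was left out where a mean of at least 10 CPM was required, and has no value there.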
